A study of Mus musculus with 24 samples.

Results

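Schwann cells are the glia of peripheral nerve, and whole muscle RNA holds their transcripts because the nerve branches inside the muscle are taken with it. Described here are 8 genes of these cells, Mbp, Pmp22, Mag, Prx, Egr2, Sox10, S100b and Mal, picked by symbol from a table of 24537 genes and found once each. RNA was sequenced from extensor digitorum longus (EDL, mainly fast-twitch) and soleus (SOL, mainly slow-twitch) muscles of 2-month-old mice. Cre+ mice were Acta1-Cre+/4Fhet and Cre- mice, the controls, were Acta1-Cre-/4Fhet. Both genotypes carried the 4F cassette, which encodes the reprogramming factors Oct4, Sox2, Klf4 and c-Myc (OSKM), and a blocked rtTA activator, ate regular chow and were given 8.5, 5.5 or 2.5 days of Dox in their water, at a strength of 1 mg/ml. Each of the 12 groups of muscle, genotype and day had 2 libraries, 24 in all. The Acta1 promoter drives Cre in myofibers, so that OSKM was induced in the fibres and the Schwann cells were not the cells targeted.

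In a myelinating Schwann cell the membrane is wrapped around 1 axon and compacted into myelin. Sox10 is the lineage transcription factor and with Egr2 (Krox20) switches on the myelin genes. Mbp and Pmp22 are proteins of compact myelin, Mag is an adhesion molecule of the inner wrap that faces the axon, and Prx (periaxin) links the outer membrane to the basal lamina. Mal is a membrane protein of myelin and of other membranes, and S100b is a calcium-binding protein used as a marker of all Schwann cells. In bulk muscle, fewer Schwann cells and less RNA per Schwann cell cannot be told apart. Several members have other sources as well: Pmp22 is made in many cell types, S100b in adipocytes, and Egr2 is also an immediate early gene.

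All 8 members were above the limit of 3 counts in all 24 libraries and passed the filter on low counts, from a lowest value of 30 counts for Mag to a highest of 9924 for Pmp22. Averaged over the libraries, the level per length was highest for Pmp22 at 63.1 FPKM, followed by Mbp at 20.7 FPKM and Prx at 5.1 FPKM. Mal stood at 3.5, S100b at 2.32, Sox10 at 1.31, Egr2 at 0.815 and Mag at 0.677 FPKM. The libraries of neighbours in this order overlapped throughout, for example Pmp22 at 32.9 to 109 FPKM and Mbp at 5.55 to 61.8 FPKM, though within each library Pmp22 stood above Mbp. Mobp, a gene of central myelin, was at 0 in all 24 libraries, and Opalin, another, averaged 0.00115 FPKM, both picked after their values were seen.

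By RefSeq model on mm10, Pmp22 (NM_001302258) lies at chr11:63128982-63159547 and Prx (NM_019412) at chr7:27499324-27520041, both on the plus strand. Egr2 (NM_010118) lies at chr10:67537869-67542188 and S100b (NM_009115) at chr10:76253836-76261319, also on the plus strand. Mag (NM_001346086) lies at chr7:30899181-30914922, Sox10 (NM_011437) at chr15:79154913-79164490 and Mal (NM_010762) at chr2:127633226-127656695, all on the minus strand. Values are summed over exons.

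The upstream sequence is shown for members grouped by their correlations over all 24 libraries below, Mag and Prx of the myelin genes, and S100b and Mal. Each is the 250 bases before the start site of the deposited gene model, on the gene's strand, from RefSeq (GRCm38.p6). Entries were matched for 6 of the 8 members. Capitals mark matches to the Sox motif ACAANG on either strand. The Egr motif GCGNGGGNG was searched in the same way and does not overlap the Sox motif.
Mag: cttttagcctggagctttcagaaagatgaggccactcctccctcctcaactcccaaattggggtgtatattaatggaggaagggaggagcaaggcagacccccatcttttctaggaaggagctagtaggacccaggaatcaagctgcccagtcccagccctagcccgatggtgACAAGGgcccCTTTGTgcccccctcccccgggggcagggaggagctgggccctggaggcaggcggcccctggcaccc
Prx: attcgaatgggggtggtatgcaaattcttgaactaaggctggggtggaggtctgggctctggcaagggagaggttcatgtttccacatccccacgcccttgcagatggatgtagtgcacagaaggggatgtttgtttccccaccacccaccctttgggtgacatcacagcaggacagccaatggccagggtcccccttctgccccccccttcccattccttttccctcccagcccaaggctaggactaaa
S100b: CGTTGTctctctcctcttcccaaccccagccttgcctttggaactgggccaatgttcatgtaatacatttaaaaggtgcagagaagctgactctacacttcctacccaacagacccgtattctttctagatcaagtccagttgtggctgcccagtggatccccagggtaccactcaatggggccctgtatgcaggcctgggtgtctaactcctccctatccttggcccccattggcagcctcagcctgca
Mal: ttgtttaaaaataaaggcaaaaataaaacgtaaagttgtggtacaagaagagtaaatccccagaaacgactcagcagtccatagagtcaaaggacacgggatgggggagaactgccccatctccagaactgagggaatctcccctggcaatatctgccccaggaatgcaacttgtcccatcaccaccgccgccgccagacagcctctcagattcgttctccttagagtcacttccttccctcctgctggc
The windows are chr7:30914923-30915172 (minus strand), chr7:27499074-27499323 (plus strand), chr10:76253586-76253835 (plus strand) and chr2:127656696-127656945 (minus strand). Mag held 2 Sox matches on opposite strands, ACAAGG from -77 to -72 and CTTTGT from -67 to -62 relative to the start site. S100b held 1, from -250 to -245. None was found upstream of Prx, Mal, Pmp22 or Egr2, and no Egr match was found upstream of any of the 6. Of 32851 RefSeq promoter windows of this length, 36.3% held a Sox match and 10.5% an Egr match, so a match is a description and not a site.

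The libraries held 36088781 to 54679082 counts each. The transgene separated the genotypes at 2.5 and 8.5 days: Sox2 lay between 7.17 and 30.7 FPKM in Cre+ EDL and between 2 and 4.76 FPKM in Cre+ SOL, against 0.0178 to 0.106 FPKM in the Cre- libraries. At 5.5 days, which the study's own text does not describe, Sox2 was called in EDL (log2 7.27 ± 1.46, edgeR adjusted p = 0.046) and not in SOL (2.53 ± 2.30). The study's methods say that samples lacking OSKM overexpression were taken out as outliers, without saying which. The 5.5-day libraries are used here for the Cre- comparison and given apart otherwise. Both Cre- SOL libraries of 8.5 days held liver transcripts, with 501 and 3719 counts of Alb against 18 to 122 in the other Cre- SOL libraries. The Cre- EDL libraries of 8.5 days held 180 and 312 counts of Alb against 15 to 58 in the other Cre- EDL libraries.

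The first comparison asked whether the 2 muscles differ in these genes without OSKM. Mbp was 18.1, 27.8 and 61.8 FPKM at its lowest, median and highest in the 6 Cre- EDL libraries, and 6.32, 11.3 and 34.9 FPKM in the 6 Cre- SOL libraries. All but 1 of the 6 SOL values lay below every EDL value, and the exception was replicate 1 of 8.5 days. In the fit of all 24 libraries Mbp was 2.47-fold higher in EDL (log2 1.30 ± 0.35 SE, edgeR adjusted p = 0.00589). S100b did not overlap, with 1.98 to 3.2 FPKM in EDL and 0.625 to 1.91 FPKM in SOL, and was 2.61-fold higher in EDL (log2 1.38 ± 0.25, edgeR adjusted p = 0.00023). Sox10 ranged from 1.21 to 2.28 FPKM in EDL and from 0.67 to 1.71 FPKM in SOL and was 2.22-fold higher (log2 1.15 ± 0.21, edgeR adjusted p = 0.000225). The remaining calls were Mal (log2 1.35 ± 0.34), Prx (1.22 ± 0.26) and Mag (1.09 ± 0.32).

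In all, 6 of the 8 members were called higher in Cre- EDL and none lower, where 24.9% of the 15478 genes tested were called in either direction and 11.6% were called higher. A call is an edgeR adjusted p under 0.05 with an absolute log2 fold change over 0.5. The members' median log2 difference was 1.18, beside -0.0221 over all genes. Pmp22 (log2 0.33, 95% interval -0.03 to 0.69) and Egr2 (0.22, -0.26 to 0.69) did not pass. Taking the replicate number as the mouse, 5 or 6 of 6 mice had more Mbp, Mag, Prx, Sox10, S100b and Mal in EDL than in SOL, which 23.8% of genes also met. In the fit without the 5.5-day libraries 4 of the 8 were called, where 3364 genes in all were, since Mbp (log2 0.94, edgeR adjusted p = 0.0764) and Mal (1.02, edgeR adjusted p = 0.0623) lost their calls. Without the EDL library of replicate 1 at 5.5 days Mag was no longer called (log2 0.71, edgeR adjusted p = 0.0754).

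**Figure D1:**
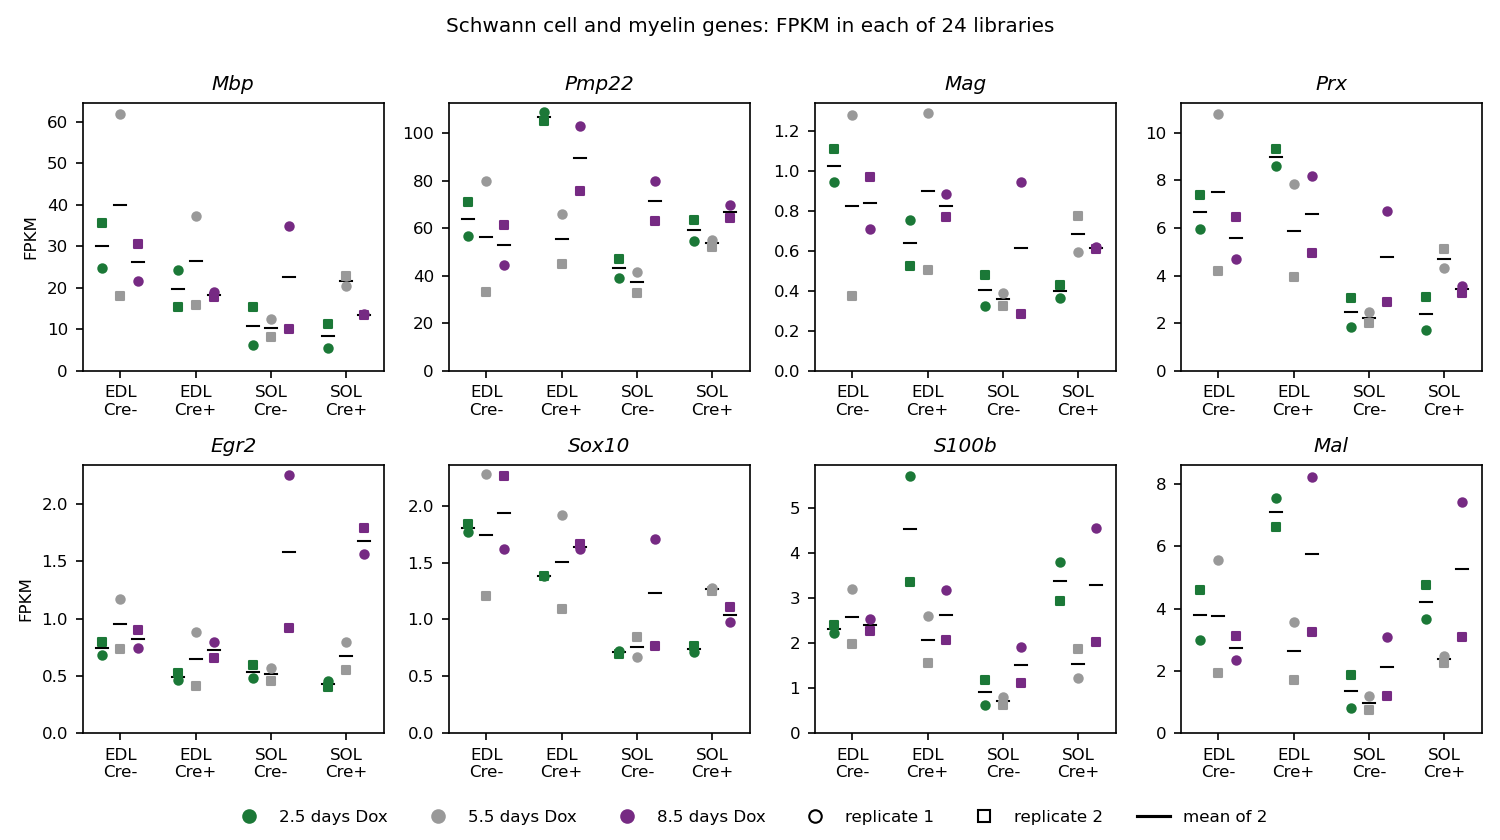
FPKM of each member in each library, in panels by gene with muscle and genotype along the x axis. Colour gives the days of Dox, circles and squares are replicates 1 and 2, and short lines are means of 2. Replicate 1 of 8.5 days is the highest Cre- SOL library in each panel, with Mbp at 34.9 FPKM, and at 2.5 and 8.5 days S100b and Mal are higher in all Cre+ than in all Cre- SOL libraries.

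By day, the fitted muscle difference was lowest in each member at 8.5 days, the day of the libraries with liver transcripts, though the intervals of the days overlap in all members but Egr2 and the difference between days was not tested. At 2.5 days the members' log2 differences ran from 0.54 for Egr2 to 1.59 for Mal, with 3 called. At 5.5 days they ran from 0.72 for Pmp22 to 2.07 for Mbp, with 5 called. At 8.5 days they ran from -0.89 for Egr2 to 0.73 for S100b, and edgeR called none, with Egr2 alone at an unadjusted p under 0.05. Of all genes, 16.9%, 19.8% and 19.5% were called on the 3 days. Replicate 1 of the 8.5-day Cre- SOL muscle was the highest of its 6 libraries in all 8 members, for example at 6.7 FPKM for Prx against 3.07 for the next. Its summed level of the 13 nerve sheath genes, 40.1 FPKM, was also the highest of the 6, and the others had 21.7 to 33.4 FPKM. So was its sum of the 10 adipocyte markers, at 1080 FPKM, though Fabp4, Lep and Thrsp among them were higher in another library. The high values of this library were thus not limited to nerve genes. The larger amount of liver RNA was in replicate 2, where no member was the highest, and the part of the liver RNA in the result was not tested. Without the Cre- libraries of 8.5 days, all 8 members were called higher in EDL, Pmp22 at log2 0.68 and Egr2 at 0.77, where 3645 genes in all were called against 3857 with them. That fit was chosen after the data were seen and leaves out the day on which the difference was smallest.

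Genes that surround the members in nerve biology differed between the Cre- muscles as well. Of the 21 other myelin and myelinating Schwann cell genes, 18 passed the filter on low counts and 11 were higher in EDL, with none lower and a median log2 difference of 0.91. Among them were Cldn19 (log2 1.34 ± 0.27), a tight junction protein of Schwann cells, Gjc3 (1.43 ± 0.21), a gap junction protein, Ugt8a (1.67 ± 0.38), which makes the myelin lipid galactosylceramide, Cnp (0.80 ± 0.15) and Dhh (0.96 ± 0.24), the Schwann cell signal to the nerve sheath. Pmp2, Ncmap, Pllp and Plekha4 were also called. Cd9, at 33 FPKM, was not called. Of the 13 genes of the nerve sheath, 9 were higher in EDL and 1, Sox9, was lower (log2 -1.33 ± 0.25). Cldn1 (1.09 ± 0.20), a tight junction gene of the perineurium, and Wif1 (1.44 ± 0.24) were among the higher ones, with Itgb4, Lypd2, Mpzl2, Moxd1, Osr2, Etv1 and Abca9.

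Lists whose genes are not limited to myelinating cells were split, and are to be read against the 11.6% of all genes called higher and the 13.3% called lower. Of 14 node and paranode genes tested, 5 were higher in EDL (Gldn, Nfasc, Cntn1, Cntn2 and Cntnap2) and 2 lower (Cntnap1 and Lama2). Of 16 genes of non-myelinating, immature and repair Schwann cells, 5 were higher (Cdh19, Foxd3, Gdnf, Kcna1 and Apod) and 2 lower (Ncam1 and Postn). Of 11 genes of neuregulin and axon-Schwann signalling, 4 were higher (Erbb4, Bace1, Cadm1 and Cadm3), and Erbb3, the neuregulin receptor of Schwann cells that muscle also expresses, was lower (log2 -0.63 ± 0.10). Of 12 Schwann cell transcription factors, Pax3 was higher and Tead1 and Egr1 were lower, a share close to that of all genes. Adipocyte markers went the other way, with 10 of 10 lower in Cre- EDL and a median log2 difference of -2.37, and the part of adipocytes in the S100b difference between the muscles was not tested. Other abundant genes of these lists, such as Dag1 at 74.9, Lamb2 at 51.3 and Nf2 at 34.4 FPKM in the node list, Jun at 32 FPKM in the repair list and Yy1 at 11.7 FPKM among the factors, are made in most cells of a muscle and were not called, each with a log2 difference within 0.5. The same held for Adam17 at 8.7 FPKM in the signalling list and Slc2a1 at 6.53 and Tjp1 at 5.96 FPKM in the sheath list. Of 10 fibroblast markers only Dcn was called, higher in EDL.

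**Figure D2:**
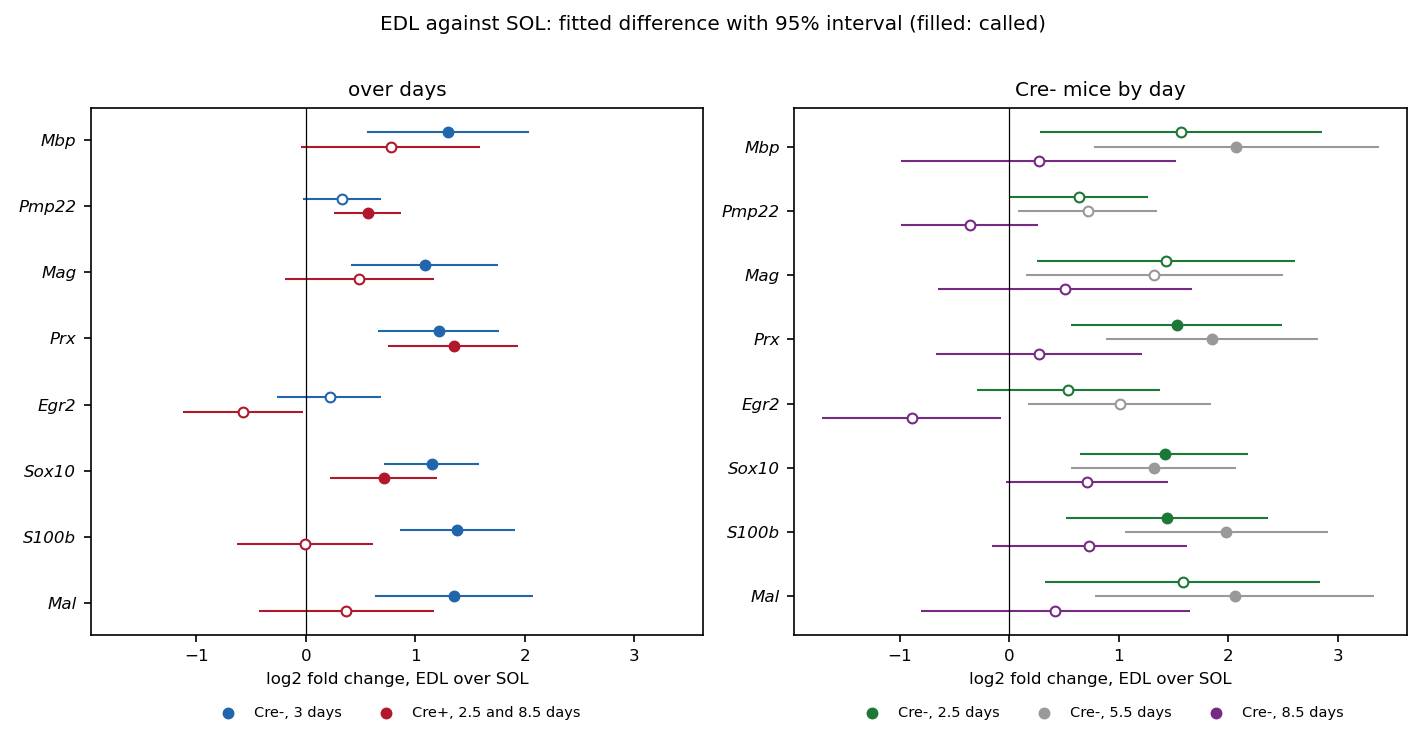
Fitted log2 difference of EDL over SOL for each member with its 95% interval. Left, Cre- mice over the 3 days and Cre+ mice over 2.5 and 8.5 days, and right, Cre- mice on each day. Filled points were called. In Cre- mice 6 members were called over the days and none at 8.5 days.

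In Cre+ mice the muscles were compared over the 8 libraries of 2.5 and 8.5 days, so that the number of calls cannot be set against that of the 12 Cre- libraries. The test of whether the muscle difference differed between the genotypes, which is the same contrast as the difference of the Cre+ change given further on, called no member on either day. Prx was 4.97, 8.17, 8.62 and 9.31 FPKM in the 4 EDL libraries and 1.72, 3.1, 3.26 and 3.58 FPKM in the 4 SOL libraries, with no overlap, and was 2.54-fold higher in EDL (log2 1.35 ± 0.28, edgeR adjusted p = 0.00185). Sox10 (log2 0.71 ± 0.22, edgeR adjusted p = 0.0225) and Pmp22 (0.57 ± 0.14, edgeR adjusted p = 0.00605) were also higher in EDL. That made 3 of 8 members, where 29.6% of 15372 genes were called. S100b did not pass (log2 -0.01, 95% interval -0.63 to 0.61), nor did Mal (0.37, -0.43 to 1.17), Mbp (0.78, -0.04 to 1.59), Mag (0.49, -0.19 to 1.17) or Egr2 (-0.57, -1.12 to -0.03). Sox10 lost its call without any of 4 libraries, namely replicate 2 of Cre+ EDL at 8.5 days, either Cre+ SOL library of 2.5 days or replicate 1 of Cre+ SOL at 8.5 days (edgeR adjusted p between 0.0515 and 0.0743), and Pmp22 fell to log2 0.48 without replicate 1 of Cre+ EDL at 8.5 days. Of the 18 other myelin genes, Gjb1 (log2 1.85 ± 0.42) and Cldn19 (0.77 ± 0.29) were higher in Cre+ EDL and Drp2 (-0.53 ± 0.14) was lower. These 3 calls were 1 without replicate 2 of Cre+ EDL or replicate 1 of Cre+ SOL at 8.5 days, and 1 in the fit of all 24 libraries. Of the 13 nerve sheath genes, Osr2 and Wif1 were higher in Cre+ EDL and Sox9 was lower.

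The next comparison was Cre+ against Cre- in each muscle and on each day, which asks whether OSKM in the myofibers came with a change in the Schwann cell genes of the same muscle. No member was called by edgeR in EDL at 2.5 days, where 24% of genes were called, or at 8.5 days, where 14.1% were. None was called in SOL at 2.5 days (0.384% of genes) or 8.5 days (0.631%), nor at 5.5 days in EDL (0.304%) or SOL (0%). At an unadjusted p under 0.05 there were 3 members in EDL and 2 in SOL at 2.5 days, beside 39% and 13.4% of all genes. There were 0 and 2 at 5.5 days, beside 8.44% and 3.86% of genes, and 1 and 2 at 8.5 days, beside 29.8% and 6.6%. DESeq2 on the same libraries called Pmp22 in EDL at 8.5 days, where it called 2459 genes in all, and S100b in SOL at 2.5 days, where it called 364, and no member in the other 4 comparisons.

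At 2.5 days in EDL the members fell into 2 sets by direction in FPKM, though none was called. Mbp was 15.5 and 24.2 FPKM in Cre+ against 24.8 and 35.6 FPKM in Cre- (log2 -0.93, 95% interval -2.08 to 0.22, edgeR adjusted p = 0.215). Mag was 0.523 and 0.756 FPKM against 0.943 and 1.11 FPKM (log2 -1.01, -1.95 to -0.06, edgeR adjusted p = 0.107). Both Cre+ libraries were below both Cre- libraries in these 2 genes and in Egr2 (log2 -0.92, edgeR adjusted p = 0.0747) and Sox10 (-0.71, edgeR adjusted p = 0.11), as in 15.4% of all genes. In Pmp22, Prx, S100b and Mal both Cre+ libraries were above, as in 52.1% of all genes. That high share goes with the FPKM scale: scaled by library size alone, the median of all genes was 0.282 higher in Cre+ on the log2 scale, against -0.0473 in the TMM-scaled fit. On the TMM scale Pmp22 was at log2 0.42, Prx at 0.09, S100b at 0.65 and Mal at 0.57, and each of their 95% intervals spanned 0. That of Prx ran from -0.74 to 0.92, so Prx had no clear direction on this scale. Leaving out 1 library moved Pmp22 from 0.24 to 0.62, S100b from 0.16 to 1.01 and Mal from 0.27 to 0.94, the low end of S100b without replicate 1 of Cre+ and that of Mal without replicate 1 of Cre-.

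At 8.5 days in EDL, Mbp was 17.7 and 19 FPKM in Cre+ and 21.7 and 30.7 FPKM in Cre- (log2 -0.70, 95% interval -1.84 to 0.45). Pmp22 was 75.8 and 103 FPKM against 44.6 and 61.3 FPKM, and at log2 0.57 ± 0.20 had the lowest adjusted p of the members on that day (edgeR, 0.0742). Leaving out 1 library moved Pmp22 from 0.34 to 0.83 and Mbp from -0.94 to -0.41, the ends of both without replicates 1 and 2 of Cre-. Mal was 3.24 and 8.24 FPKM against 2.35 and 3.12 FPKM (log2 0.87, -0.29 to 2.02), and was at 0.11 without replicate 1 of Cre+ and 1.36 without replicate 2. Both Cre+ libraries were above both Cre- libraries in Pmp22 and Mal, as in 40.3% of all genes, and below them in Mbp, as in 15.5%. Mag, Prx, Egr2, Sox10 and S100b overlapped between the genotypes, with log2 values from -0.42 to 0.04.

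In SOL the 2 members that stood apart on both 2.5 and 8.5 days were S100b and Mal. At 2.5 days alone, Pmp22 also had both Cre+ libraries above both Cre- libraries (54.8 and 63.6 against 39.3 and 47.1 FPKM), as in 43.8% of all genes. Egr2 had both below on that day (0.403 and 0.452 against 0.48 and 0.593 FPKM), as in 10.5%. S100b was 2.94 and 3.81 FPKM in Cre+ at 2.5 days against 0.625 and 1.18 FPKM in Cre-, and 2.02 and 4.55 FPKM at 8.5 days against 1.12 and 1.91 FPKM. Mal was 3.67 and 4.74 FPKM against 0.812 and 1.87 FPKM at 2.5 days, and 3.09 and 7.43 FPKM against 1.2 and 3.07 FPKM at 8.5 days. All 4 Cre+ SOL libraries thus lay above all 4 Cre- SOL libraries in both genes, a pattern found in 7.14% of all genes. The fitted changes were log2 1.75 ± 0.43 (edgeR adjusted p = 0.119) and 1.06 ± 0.42 (0.628) for S100b, and 1.5 ± 0.56 (0.262) and 1.24 ± 0.54 (0.705) for Mal, at 2.5 and 8.5 days. Leaving out 1 library moved S100b from 1.40 to 2.25 at 2.5 days and from 0.41 to 1.56 at 8.5 days, and Mal from 1.04 to 2.19 and from 0.52 to 2.14. The low ends at 8.5 days were without replicate 1 of Cre+ and the high ends without replicate 1 of Cre-, and at 2.5 days without replicates 1 and 2 of Cre-. Mbp overlapped between the genotypes on both days: it was 5.55 and 11.4 FPKM in Cre+ at 2.5 days against 6.32 and 15.3 FPKM, and 13.4 and 13.6 FPKM at 8.5 days against 10.2 and 34.9 FPKM. Leaving out 1 library moved the log2 change of Mbp from -1.11 to 0.24 at 2.5 days and from -1.46 to 0.43 at 8.5 days. The upper ends were without replicate 2 of Cre- at 2.5 days and replicate 1 of Cre- at 8.5 days, so its direction rests on single libraries.

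Averaged over 2.5 and 8.5 days, a contrast chosen after the data were seen, S100b was 2.65-fold higher in Cre+ SOL (log2 1.41 ± 0.30, edgeR adjusted p = 0.0345), and was the 1 member called where 1.47% of genes were. Mal was at log2 1.37 ± 0.39 (edgeR adjusted p = 0.101). The call for S100b was lost without any 1 of 6 of the 8 libraries, with log2 values from 1.08 to 1.66 and edgeR adjusted p from 0.0612 to 0.168. It was kept without replicate 2 of Cre+ or replicate 1 of Cre- at 8.5 days. Adipocytes are another source of S100b. Their 10 markers overlapped between the genotypes, summing to 651 to 996 FPKM in Cre+ SOL and 514 to 1080 FPKM in Cre- SOL. The median log2 change was -0.10, with none called. Most of the sum was Fabp4, at 409 to 698 FPKM in Cre+ SOL and 361 to 643 FPKM in Cre- SOL. Adipoq ran from 17.5 to 30.9 FPKM in Cre+ SOL and from 3.63 to 46.3 FPKM in Cre- SOL, so the libraries differed more in it than in the sum. The part of adipocytes in the S100b result was not tested further. In EDL the same contrast called no member by edgeR, where 24.1% of genes were called, with 4 members at an unadjusted p under 0.05, beside 45.6% of all genes, and 1 called by DESeq2, beside 3632 genes in all. Pmp22 was at log2 0.49 ± 0.14 (edgeR adjusted p = 0.0155), just under the fold limit, Mbp at -0.81 ± 0.37 (0.109), Egr2 at -0.64 ± 0.25 (0.0632) and Sox10 at -0.57 ± 0.22 (0.0598). The change was not shown to differ between EDL and SOL for any member at 2.5 days, where 4.25% of genes were called for that difference, or at 8.5 days, where 0.592% were. DESeq2 called none for it either, and at an unadjusted p under 0.05 edgeR gave 0 members at 2.5 days, beside 21% of genes, and 1, Pmp22, at 8.5 days, beside 11.2%. For S100b the difference was log2 -1.11 (95% interval -2.39 to 0.17) at 2.5 days and -1.13 (-2.39 to 0.14) at 8.5 days.

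**Figure D3:**
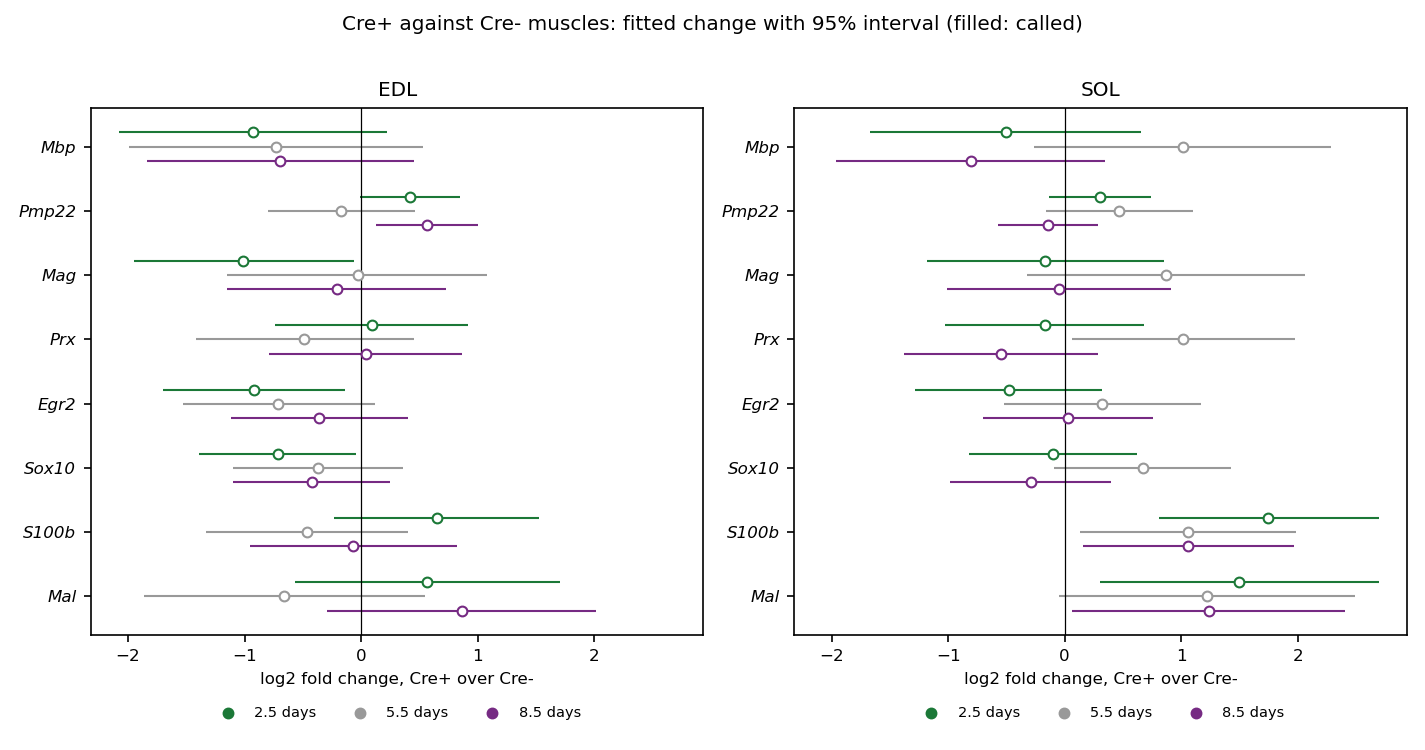
Fitted log2 change of Cre+ over Cre- for each member with its 95% interval, EDL on the left and SOL on the right, coloured by days of Dox. No point is filled because no member was called. In SOL the S100b and Mal intervals lie above 0 at 2.5 and 8.5 days, while those of Mbp, Mag, Prx, Egr2 and Sox10 span 0 on both days.

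Ratios to Mbp in the same library are a description with no test. At 2.5 and 8.5 days those of S100b and Mal were mostly higher in the Cre+ libraries of both muscles. The mean of Mbp itself was lower in these Cre+ libraries, at 0.678 of that of Cre- in EDL and 0.658 in SOL, which raises any gene's ratio. In FPKM alone, all 4 Cre+ libraries lay above all 4 Cre- ones in 27.1% of genes in EDL and 7.14% in SOL. The share of all genes whose ratio to Mbp separated was not computed. The Mal to Mbp ratio of FPKM was 0.101 to 0.129 in the 4 Cre- EDL libraries of 2.5 and 8.5 days and 0.183 to 0.433 in the 4 Cre+ ones. In SOL it was 0.0879 to 0.128 in Cre- and 0.231 to 0.662 in Cre+. The S100b to Mbp ratio was 0.0546 to 0.11 in Cre- SOL and 0.15 to 0.685 in Cre+ SOL, and in EDL 0.0677 to 0.117 against 0.116 to 0.236, where 1 Cre+ library fell inside the Cre- range. Pmp22 to Mbp separated in EDL, at 1.99 to 2.28 against 4.27 to 6.79, and overlapped in SOL. Prx to Mbp also separated in EDL, at 0.208 to 0.24 against 0.28 to 0.601, and overlapped in SOL. Mag to Mbp overlapped in both muscles. At 5.5 days the Mal to Mbp ratio was 0.0928 and 0.0959 in Cre- SOL and 0.0986 and 0.121 in Cre+ SOL. In EDL on that day it overlapped, at 0.0901 and 0.107 in Cre- and 0.0958 and 0.107 in Cre+. The S100b to Mbp ratio at 5.5 days overlapped in both muscles. It was 0.0639 and 0.0768 in Cre- SOL against 0.0601 and 0.0813 in Cre+ SOL. In EDL it was 0.0518 and 0.11 against 0.0696 and 0.0991.

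**Figure D4:**
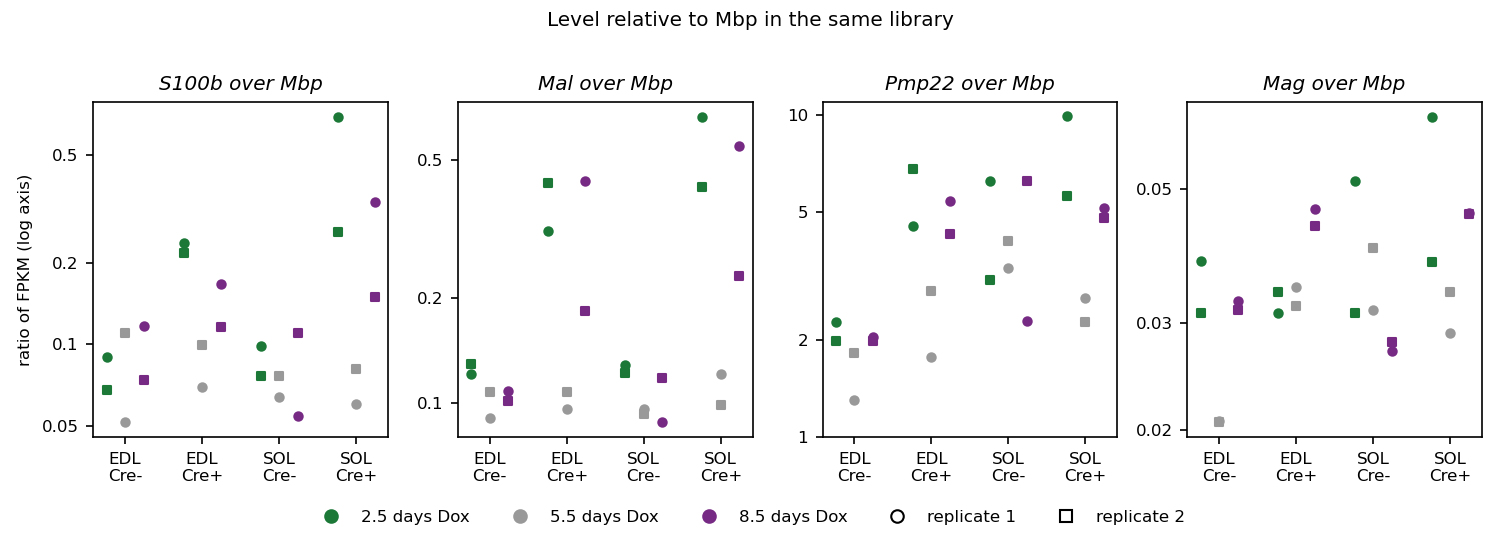
Ratio of the FPKM of S100b, Mal, Pmp22 and Mag to that of Mbp in the same library, on log axes, by muscle and genotype. Colour gives the days of Dox and shape the replicate. The Mal ratio lies between 0.0879 and 0.129 in the Cre- libraries of 2.5 and 8.5 days and at 0.183 or more in the Cre+ ones.

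The 5.5-day libraries gave another picture. In SOL, 7 of the 8 members, all but Egr2, had both Cre+ libraries above both Cre- libraries, as did 26.5% of all genes, and the log2 changes ran from 0.32 for Egr2 to 1.22 for Mal, with an edgeR adjusted p of 1 for each. DESeq2 on these 4 libraries alone called 3 members, where it called 31 genes in all, and on all 24 libraries none. Mbp was 20.5 and 22.8 FPKM in Cre+ against 8.13 and 12.4 FPKM in Cre- SOL. In EDL all 8 overlapped, and replicates 1 and 2 of Cre- stood far apart, at 61.8 and 18.1 FPKM of Mbp.

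Some other Schwann cell and nerve genes were called in Cre+ EDL, where 24% of all genes were called at 2.5 days and 14.1% at 8.5 days. At 2.5 days 3 of 18 other myelin genes were lower, Cadm4 (log2 -1.11 ± 0.31), Plekha4 (-0.94 ± 0.26) and Drp2 (-0.73 ± 0.20), the partner of periaxin at the outer membrane, and none was higher, where 10.2% of all genes were lower, so that the share of the list called in either direction was below that of all genes. That count was 0 without replicate 2 of Cre+ or of Cre-, 7 and 1 without replicate 1 of Cre+ and of Cre-, 0 in the fit of all 24 libraries, 1 with library size alone and 5 with DESeq2. At 8.5 days edgeR called none, with 2 at an unadjusted p under 0.05. In the average of 2.5 and 8.5 days 9 of the 18 were lower and none higher, with a median log2 change of -0.70, where 11% of all genes were lower. Among them were Cldn19 (-0.80 ± 0.28), Gjc3 (-0.68 ± 0.23), Fa2h (-0.88 ± 0.29), Dhh (-0.70 ± 0.24), Pmp2 (-1.29 ± 0.45), Drp2, Cadm4 and Plekha4. That count was 0 without replicate 2 of Cre+ EDL at 2.5 days and 0 with library size alone as the scale. It was 2 without either Cre+ EDL library of 8.5 days or replicate 2 of Cre- at 2.5 days, 4 and 3 without replicates 1 and 2 of Cre- at 8.5 days, and 3 in the fit of all 24 libraries and 6 with the replicate number as a block. In SOL edgeR called none of the 18 on either day, with 1 on each at an unadjusted p under 0.05.

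In the other lists the calls are given by gene, to be read against those shares of all genes. Among genes of non-myelinating, immature and repair Schwann cells, Ncam1 was higher in Cre+ EDL at 2.5 days (log2 3.44 ± 0.31) and 8.5 days (2.07 ± 0.29), and this adhesion molecule is also made by myofibers and satellite cells. Ngfr, the low-affinity neurotrophin receptor, was higher at 8.5 days (1.38 ± 0.44), and Gdnf was lower at 2.5 days (-2.07 ± 0.69). Erbb2, the neuregulin co-receptor, was higher on both days (1.30 ± 0.19 and 1.77 ± 0.19), Cadm3 was higher at 2.5 days (2.14 ± 0.33) and Bace1 was lower at 8.5 days (-0.81 ± 0.19). Of the transcription factors, Sox2 of the cassette was higher, Tead1 was lower on both days (-0.50 ± 0.16 and -0.73 ± 0.16), Notch1 was lower at 2.5 days and Nab1, a co-factor of Egr2, was lower at 8.5 days (-0.50 ± 0.15). Of node genes, Nfasc was lower (-1.02 ± 0.32) and Utrn higher (0.52 ± 0.16) at 2.5 days, and Lama2 was higher at 8.5 days (0.94 ± 0.21). No nerve sheath gene was called by edgeR on either day, with 1 and 0 at an unadjusted p under 0.05 at 2.5 and 8.5 days, beside 39% and 29.8% of all genes. In SOL, Sox2 was the only gene of these 6 lists to be called on either day.

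Beyond the group differences the members moved together from library to library in most groups, though less so in Cre+. In 4 of the 12 groups the replicate with more Mbp had more of all 8 members, and in 8 groups more of at least 7. In the other 4 groups, Cre+ EDL at 2.5 days and Cre+ SOL on each day, it had more of 4 to 6. The share of all genes that moved with Mbp in this way was not computed. In Cre- EDL at 5.5 days replicate 1 exceeded replicate 2 by 3.42-fold in Mbp and by 1.6-fold to 3.43-fold over the members. In Cre- SOL at 8.5 days the excess was 3.44-fold in Mbp and at least 1.26-fold in every member. Within the groups, the Pearson correlation of Mbp was 0.94 with Mag, 0.936 with Prx, 0.842 with Pmp22, 0.822 with Mal, 0.771 with Egr2, 0.768 with Sox10 and 0.647 with S100b, over deviations of 24 libraries from their group means, which share library and depth. With 2 libraries a group the deviations of a group are equal and opposite, so the 24 values hold only 12 separate differences.

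Across all 24 libraries as they stand the members parted into sets. Mbp correlated at 0.911 with Mag, 0.891 with Prx and 0.894 with Sox10, but at 0.444 with Mal and 0.392 with S100b, while S100b and Mal correlated at 0.915 with each other and Mal with Pmp22 at 0.814. These values include the difference between the muscles. Within 1 muscle, scaled by library size alone, Mbp correlated with Prx at 0.56 in EDL and 0.97 in SOL. With Mag it was 0.822 and 0.87, and with Sox10 0.808 and 0.804, so Prx followed Mbp less closely in EDL. Among the 10 other genes most like the mean of Mbp, Mag and Prx, of 11328 genes at 1 FPKM or more, were Cldn19 (Pearson 0.977), Pllp (0.952), Aatk (0.909), Cnp (0.908), Ncmap (0.885), Plekha4 (0.866), Fxyd3 (0.832) and Egfl8 (0.794). Sox10 ranked 4 in that order, Pmp22 279, Mal 550 and S100b 987. Egr2 lay under 1 FPKM on average and was not ranked.

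Egr2 was highest at 8.5 days in SOL. It was 0.918 and 2.25 FPKM in Cre- and 1.56 and 1.79 FPKM in Cre+ SOL at 8.5 days, above all 8 SOL libraries of the other days, which held 0.403 to 0.794 FPKM. The share of all genes that separated the days of SOL in this way was not computed, so this is a description of Egr2 alone. In EDL Egr2 stayed between 0.411 and 1.17 FPKM on all days. Within 8.5 days Egr2 was lower in Cre+ EDL than in Cre+ SOL (log2 -1.30 ± 0.38, edgeR adjusted p = 0.0216), 1 of 8 members called where 19.2% of genes were. Of 21 immediate early genes, 1, Egr3, of the same family, was also higher in the 4 SOL libraries of 8.5 days (0.969 to 2.08 FPKM) than in the 8 of the other days (0.211 to 0.7 FPKM). Another 3 were lower in all 4, namely Dusp1, Ier3 and Ier5, and 17 overlapped. These 4 genes were named after their values were seen. Whether Egr2 RNA in these libraries came from Schwann cells or other cells was not tested.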

How the data were processed

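Raw counts of stranded single-end poly(A) RNA-seq were deposited in 1 table. The authors used STAR (2.5.3a) for alignment, on mm10, and HOMER (4.9.1) for counting reads unique to exons of RefSeq genes, library by library, and the deposited counts are whole numbers without normalization. Whether counting used strand is not given in the sources used here, and Pmp22 overlaps a microRNA gene on the other strand.

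Groups came from the sample titles. Counts were tested with edgeR 4.0.16 (R 4.3.3; TMM, a minimum count of 10, quasi-likelihood test, 1 mean per group), with Benjamini-Hochberg adjustment over all genes. The fit for 2.5 and 8.5 days held 16 libraries and 15372 genes, and that for 5.5 days, for Cre- EDL against SOL and for EDL against SOL on single days held 24 libraries and 15478 genes. FPKM were computed as counts over exon length and library total. Intervals are 95%. Correlations used log2 CPM. The scripts were tested on simulated data. Alternatives were DESeq2 1.42.0, other scalings, filters, thresholds, sets of libraries, blocks by replicate number, and fits that left out 1 library at a time.

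The members and gene lists were chosen with earlier results of these data known. Named genes are the members, the genes of the Schwann cell and nerve lists that were called in a described comparison or are among the 3 most abundant of their list, and the 10 genes most like Mbp, Mag and Prx. Some genes that meet this rule are not reported here. EDL and SOL libraries of the same genotype, day and number deviated together (correlations of 0.173 to 0.445 over 15478 genes in all 6 pairs of groups), so the number was taken to mark the mouse. Cre+ and Cre- libraries of the same number did not (-0.169 to 0.0578). The labels do not state which animal gave a library, and p-values measure the spread between these libraries.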

Additional observations from a re-analysis of the deposited data

Results flagged for a closer look

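Over the 3 days, the 6 Cre- SOL libraries held 1 that stood apart from the rest, replicate 1 of 8.5 days. Its FPKM was far above the next highest for Mbp (34.9 against 15.3), Mag (0.944 against 0.479), Prx (6.7 against 3.07), Egr2 (2.25 against 0.918) and Sox10 (1.71 against 0.849). In each, the gap to the next library took over 0.625 of the whole range of the 6 (Dixon's limit), from 0.684 for Mbp to 0.828 for Sox10. In all 32 sets of 6 libraries, by member, muscle and genotype, were examined and these 5 were the only ones past the limit. Chance alone passes about 1 in 20 such sets, and the 5 share 1 library and are not separate events.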

How the results depend on the processing

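Leaving out each library in turn kept the count of members called in Cre- EDL against SOL at 5 to 6 and in Cre+ at 2 to 3. It gave 0 to 1 in EDL at 8.5 days and in the averages over 2.5 and 8.5 days of either muscle. Library size alone gave 1 in EDL at 2.5 days, 1 at 8.5 days and 1 in their average, Pmp22 in each, beside 4817, 2498 and 4406 genes in all. DESeq2 on the same libraries gave 1 in EDL at 8.5 days, 1 in SOL at 2.5 days, 1 in the EDL average and 2 in the SOL average, beside 2459, 364, 3632 and 448 genes in all, and no filter on low counts gave 2 in the latter, beside 309. DESeq2 on 4 libraries alone gave 1, 1, 2 and 3 in EDL at 2.5 and 8.5 days and SOL at 2.5 and 5.5 days, beside 3246, 1828, 537 and 31 genes in all. An adjusted p under 0.1 gave 1, 1 and 2 in EDL at 2.5 days, at 8.5 days and in their average, beside 4319, 2768 and 4041 genes, and 4 in Cre+ EDL against SOL, beside 4876. No minimum fold gave 1 in the EDL average, beside 5651 genes. The cause was not tested. The replicate block by number gave 1 member, Pmp22 at log2 0.50, in the EDL average and turned Mag in SOL at 8.5 days to 0.15. The replicate block by mouse turned S100b in Cre+ EDL against SOL to 0.00, and no block in the full sets of libraries changed another member's call. Of the other myelin genes, the block by number called 6 in place of 9 in the EDL average, and the block by mouse called 13 in place of 11 in Cre- and 4 in place of 3 in Cre+ EDL against SOL.

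Signs of members that were not called turned in other settings. Library size alone gave S100b 0.12 in EDL at 8.5 days and 0.05 in Cre+ EDL against SOL, Sox10 0.05 in SOL at 2.5 days and Mag 0.01 in SOL at 8.5 days. Without the 5.5-day libraries Egr2 in Cre- EDL against SOL was -0.16. Leaving out 1 library moved the log2 change in SOL at 8.5 days from -0.51 to 0.89 for Egr2, -0.70 to 1.13 for Mag, -1.46 to 0.43 for Mbp, -0.34 to 0.10 for Pmp22, -1.06 to 0.26 for Prx and -0.79 to 0.47 for Sox10, the lower end without replicate 2 and the upper end without replicate 1 of Cre- at 8.5 days. In SOL at 2.5 days the ranges were -0.39 to 0.11 for Mag, -1.11 to 0.24 for Mbp and -0.66 to 0.21 for Prx. In EDL they were -0.08 to 0.28 for Prx at 2.5 days, and -0.42 to 0.06 for Mag, -0.30 to 0.32 for Prx and -0.35 to 0.17 for S100b at 8.5 days. They were -0.02 to 0.20 for Pmp22 in the SOL average, and 0.00 to 0.73 for Mal and -0.25 to 0.32 for S100b in Cre+ EDL against SOL. The averages and the fits without Cre- libraries of 8.5 days were chosen after the data were seen. With 2 libraries a group, the intervals of Mbp and Mal in single days span over 2 log2 units.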
